A study of Mus musculus with 4 samples.

Results

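The vomeronasal receptor genes of the mouse form the families Vmn1r and Vmn2r, and 343 of them had a row on the assembled chromosomes of the genome annotation deposited with this series. They were chosen by name alone, as symbols that begin with Vmn1r or Vmn2r followed by a digit. They took 429 of the 50727 rows of the annotation, with 303 rows for 228 Vmn1r genes and 126 rows for 115 Vmn2r genes. The libraries of the series map RNA polymerase I (Pol I) on chromatin with CUT&Tag, in which an antibody guides a transposase to the chromatin around its target. The cells were C64 mouse embryonic stem cells, and a Pol I antibody was used in all 4 libraries. The control group was untreated (2 libraries), and the other group received auxin at 500 nM for 6 h (2 libraries). The labels name no allele or degron, and do not say whether replicate libraries came from separate cultures. No value per library was analysed here, so nothing below is an occupancy, an expression level or an effect of auxin, and the depth of the libraries is unknown. The positions are fixed and have no replicate error. The families are compared by counts, medians and ranges, and no test was run.

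Vomeronasal receptors are G protein-coupled receptors of sensory neurons in the vomeronasal organ, the part of the nose that detects pheromones and signals from other animals. V1R receptors, encoded by Vmn1r genes, sit in neurons that use the G protein subunit Gnai2 and respond mainly to small molecules. V2R receptors, encoded by Vmn2r genes, sit in neurons that use Gnao1, have a large extracellular domain and respond mainly to peptides and proteins. Both kinds of neuron signal through the channel Trpc2. The genes are known for lying in clusters of close copies.

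How alike these copies can be is seen in the 300 bases around the first base of a gene, printed here for genes of both families that lay beside each other. The windows are from RefSeq (GRCm38.p6), hold 250 bases before the annotated start and 50 from it, and are written 5′ to 3′ on the gene's strand. For genes whose row starts at the start codon, as in all those printed, base 251 is the A of that codon. In the first sequence of each set capitals mark the start codon. In the others capitals mark letters that differ from the first sequence of the set at the same place. The first set holds Vmn1r130 (chr7:21511530-21511829, plus strand) and the next gene, Vmn1r131 (chr7:21546041-21546340, minus strand), which differed in 20 of 300 letters, 17 of them before the start codon.
Vmn1r130: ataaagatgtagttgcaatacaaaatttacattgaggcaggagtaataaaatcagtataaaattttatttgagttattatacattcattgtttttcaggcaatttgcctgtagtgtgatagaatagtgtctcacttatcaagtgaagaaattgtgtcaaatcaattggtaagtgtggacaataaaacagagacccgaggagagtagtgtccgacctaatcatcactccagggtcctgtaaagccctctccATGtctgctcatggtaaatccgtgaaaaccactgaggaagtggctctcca
Vmn1r131: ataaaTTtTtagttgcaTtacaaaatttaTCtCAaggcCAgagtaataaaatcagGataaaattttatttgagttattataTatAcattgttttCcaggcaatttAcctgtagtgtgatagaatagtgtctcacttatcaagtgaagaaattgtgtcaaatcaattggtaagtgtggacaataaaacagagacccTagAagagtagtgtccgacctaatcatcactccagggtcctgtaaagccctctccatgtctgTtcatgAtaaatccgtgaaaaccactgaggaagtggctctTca
The window of Vmn1r130 recurred letter for letter at Vmn1r137 and Vmn1r165, and that of Vmn1r131 at 5 other genes. The second set holds 3 neighbours on chromosome 17 that include Vmn2r116, the receptor of the peptide ESP1. They are Vmn2r116 (chr17:23384553-23384852, plus strand), Vmn2r115 (chr17:23343727-23344026, plus strand) and Vmn2r114 (chr17:23312264-23312563, minus strand).
Vmn2r116: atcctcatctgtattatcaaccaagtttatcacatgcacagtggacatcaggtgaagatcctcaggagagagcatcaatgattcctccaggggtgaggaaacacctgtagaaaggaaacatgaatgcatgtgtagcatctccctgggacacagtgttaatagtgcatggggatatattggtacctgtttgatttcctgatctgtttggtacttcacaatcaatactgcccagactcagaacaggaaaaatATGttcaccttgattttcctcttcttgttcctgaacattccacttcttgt
Vmn2r115: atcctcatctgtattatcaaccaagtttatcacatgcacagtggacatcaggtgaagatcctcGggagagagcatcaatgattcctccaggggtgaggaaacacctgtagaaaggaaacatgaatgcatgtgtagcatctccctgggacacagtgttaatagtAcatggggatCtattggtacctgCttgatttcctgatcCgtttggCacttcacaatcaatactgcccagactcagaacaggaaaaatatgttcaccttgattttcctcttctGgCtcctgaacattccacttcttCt
Vmn2r114: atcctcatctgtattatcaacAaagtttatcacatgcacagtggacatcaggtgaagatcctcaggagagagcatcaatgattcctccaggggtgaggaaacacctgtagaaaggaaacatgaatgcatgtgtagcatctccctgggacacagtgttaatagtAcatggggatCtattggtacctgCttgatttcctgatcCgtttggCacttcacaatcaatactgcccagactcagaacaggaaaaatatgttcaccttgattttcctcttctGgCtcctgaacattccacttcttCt
Vmn2r115 and Vmn2r114 each differed from Vmn2r116 in 9 letters, 6 of them before the start codon, and from each other in 2. The last window is that of Vmn2r1 (chr3:64081392-64081691, plus strand), shown because its closest match among all members was only 52.0% identical. This was the lowest value among the Vmn2r windows compared, and the lowest among Vmn1r windows was 50.7%.
Vmn2r1: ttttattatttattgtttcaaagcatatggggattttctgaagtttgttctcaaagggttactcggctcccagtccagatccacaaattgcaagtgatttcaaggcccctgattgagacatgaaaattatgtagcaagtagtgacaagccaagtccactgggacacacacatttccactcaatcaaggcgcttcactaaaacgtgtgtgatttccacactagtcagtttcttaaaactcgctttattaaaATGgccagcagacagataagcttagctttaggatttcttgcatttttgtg

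The families differed in gene structure with no overlap in coding exon number, span or coding length except for the longest Vmn1r spans. The row with the longest coding length was used for each gene. All 228 Vmn1r genes had 1 coding exon, against 4 to 7 coding exons in the 115 Vmn2r genes. Of these, 103 (89.6%) had 6 coding exons, 8 had 5, Vmn2r96 and Vmn2r129 had 4, and Vmn2r120 and Vmn2r126 had 7. Among all coding genes of the annotation, 15.4% had 1 coding exon and 7.01% had 6. In olfactory receptor genes (Olfr), the largest family of odour receptors, 99.1% had 1 coding exon.

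Coding length was narrow within each family. Vmn1r genes had a median coding length of 924 bases, with quartiles of 912 and 936 bases. They ran from 870 bases in Vmn1r237 (chromosome 17) to 1155 bases in Vmn1r213 (chromosome 13). The Vmn2r median was 2562 bases, with quartiles of 2550 and 2574 bases and a range from 1311 bases in Vmn2r129 to 2739 bases in Vmn2r1. Each of the 343 coding lengths was a multiple of 3. The median coding length was 942 bases in Olfr genes and 1221 bases over all coding genes.

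Span, from the first to the last base of the row, varied far more than coding length. The Vmn1r median was 924 bases, the same as that of coding length, and 86.4% of the rows held no untranslated part at all. The Vmn2r median was 23817 bases, from 8397 bases in Vmn2r129 (chromosome 4, 156331103 to 156339499) to 79306 bases in Vmn2r60 (chromosome 7, 42116471 to 42195776). Coding bases made up a median of 10.8% of a Vmn2r span, and introns most of the rest. The share of rows without an untranslated part was 85.2% in Vmn2r genes, 72.4% in Olfr genes and 6.20% over all coding genes. For 198 of 228 Vmn1r and 100 of 115 Vmn2r genes the row began at the start codon, so its first base is not a mapped start of transcription.

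**Figure D1:**
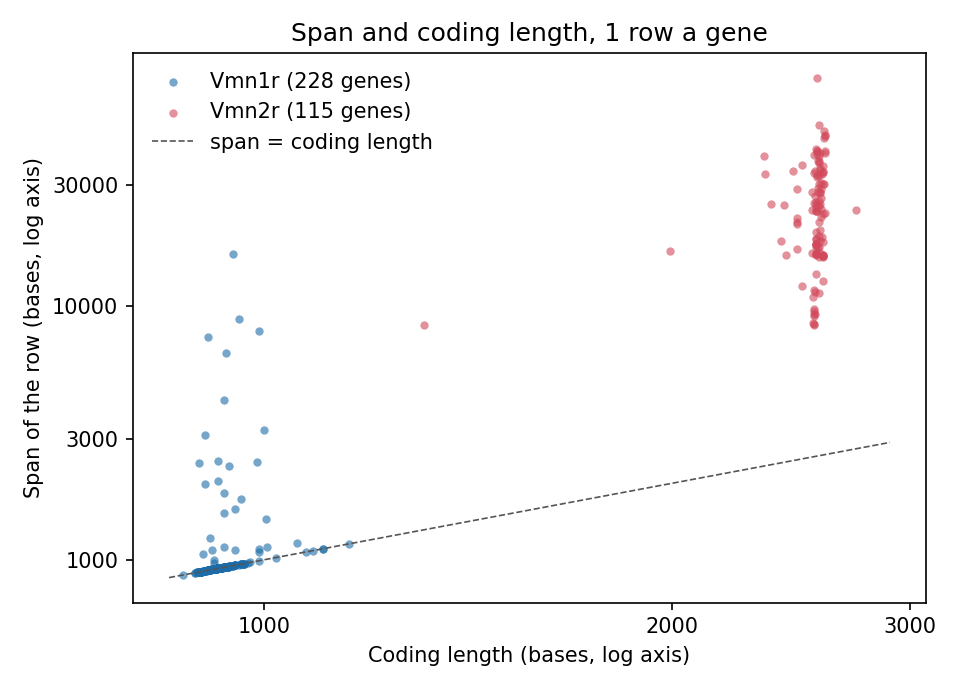
Coding length (x axis, bases) and span (y axis, bases) of each gene, both on log axes, 1 point a gene. The 228 Vmn1r genes lie between 870 and 1155 coding bases, mostly on the line where span equals coding length, and the Vmn2r genes lie at 8397 bases of span or more.

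Only 10 Vmn1r genes had more than 1 exon, and in all 10 the whole coding part lay in the last exon. Vmn1r5 (chromosome 6, 56970335 to 56986350) had 2 exons separated by an intron of 14930 bases and the longest span of the family, 16016 bases. Vmn1r41 and Vmn1r45, both on chromosome 6, had introns of 5502 and 5609 bases. Vmn1r32, Vmn1r51 and Vmn1r65 had 3 exons. The upstream exons in these 10 genes hold no coding bases, so the coding part was uninterrupted in every Vmn1r gene.

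The 6 coding exons of Vmn2r genes mostly kept their sizes. Over the 103 genes with 6, the median lengths were 206, 292, 807, 228, 124 and 920 coding bases in transcript order. Ranges were 98 to 285 bases in exon 1, 244 to 798 in exon 2, 191 to 873 in exon 3, 37 to 231 in exon 4 and 755 to 983 in exon 6. Vmn2r56, with 285, 798, 191, 37, 124 and 905 bases, had the longest exons 1 and 2 and the shortest exons 3 and 4. The nearby Vmn2r53 and Vmn2r55, with 5 coding exons, also begin with 285 and 798 bases. By number, exons 1 to 4 of Vmn2r56 may therefore not be the counterparts of those in the other genes. Exon 5 was 124 bases in 103 of 103 genes, while the other exons took 9 to 19 different lengths. The second-to-last coding exon was also 124 bases in 112 of the 113 Vmn2r genes with 5 or more coding exons, the exception being Vmn2r55. Among other coding genes with 6 coding exons it was 124 bases in 10 of 1369 (0.730%). Exons 3 and 6 were the longest, at a median of 31.5% and 35.7% of the coding length. The last exon holds the membrane-spanning part of the receptor in this gene family, and the exons before it the extracellular part.

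The reading frame at the junctions was also shared. Exon 1 ended 2 bases into a codon in 102 of 103 genes. Exons 2 and 3 ended between codons in 102 each, exon 4 ended between codons in all 103, and exon 5 ended 1 base into a codon in all 103. The exceptions were Vmn2r56 at the ends of exons 1 and 3 and Vmn2r11 at the end of exon 2. Those of Vmn2r56 rest on exon numbers that may not correspond to the other genes. Introns differed in size by position. Intron 2 was the shortest, with a median of 436 bases (285 to 12946), and intron 5 was the longest, with a median of 5116 bases (1134 to 52560). Introns 1, 3 and 4 had medians of 2935, 1273 and 2344 bases.

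Some other class C receptors, which share the large extracellular domain, had a like exon plan. Casr, the calcium-sensing receptor, and Gprc6a, an amino acid receptor, had 6 coding exons, of which exon 5 held 124 bases. So did Tas1r2, a subunit of the sweet taste receptor, while the taste receptor subunits Tas1r1 and Tas1r3 had 6 with 121 bases in exon 5. The first 2 coding exons of Casr held 185 and 307 bases and those of Gprc6a 194 and 304.

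**Figure D2:**
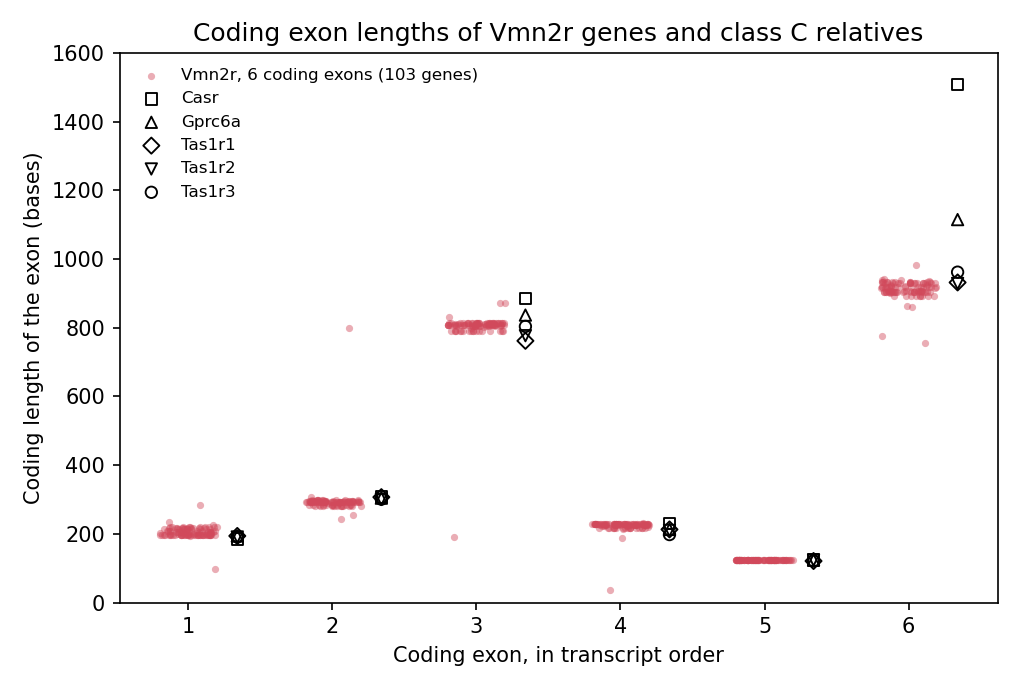
Coding length (y axis, bases) of each coding exon in transcript order (x axis) for the 103 Vmn2r genes with 6 coding exons (red points, spread sideways) and 5 class C relatives (open symbols). All 103 red points at exon 5 are at 124 bases, as are Casr, Gprc6a and Tas1r2.

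Whole layouts, meaning the ordered set of coding exon lengths, were often shared within a cluster. The 115 Vmn2r genes had 68 different layouts, and 64 genes shared theirs with at least 1 other, while 51 had a layout of their own. Of the 17 shared layouts, 14 were found within 1 cluster and 3 in several, such as that of Vmn2r86 and Vmn2r87 (chromosome 10), which was also that of Vmn2r88 and Vmn2r89 (chromosome 14). The commonest, 197, 292, 813, 228, 124 and 905 bases, was found in 14 genes, 13 of them between Vmn2r29 and Vmn2r52 on chromosome 7 and the other Vmn2r28 on the same chromosome. Another 7 genes of that stretch differed from it only in a last exon of 932 bases. Of family C, the V2R receptors that are found in most neurons of the V2R kind, 6 genes were present. Vmn2r2, Vmn2r4, Vmn2r5, Vmn2r6 and Vmn2r7 had 5 coding exons of exactly 267, 870, 231, 124 and 983 bases. Vmn2r1 had 6, of 236, 292, 873, 231, 124 and 983 bases, so its last 3 exons matched theirs in length. Vmn2r18, Vmn2r53 and Vmn2r55 also had 5.

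Members were found on 12 chromosomes, 4 of them shared by both families. Chromosome 7 held the most of each family, with 124 Vmn1r genes (54.4%) and 46 Vmn2r genes (40.0%). Vmn1r genes were otherwise mainly on chromosome 6 (51 genes), 13 (35 genes) and 17 (14 genes), and Vmn2r genes on chromosome 17 (31 genes), 5 (11 genes) and 6 (9 genes). Only Vmn2r genes were found on chromosomes 3, 5, 10, 14 and X, and only Vmn1r genes on chromosomes 1, 13 and 18.

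Members less than 1 Mb apart were joined into clusters, which gave 19 clusters of 2 to 86 genes and 8 lone genes. Of the clusters 7 held only Vmn1r genes, 9 only Vmn2r genes and 3 both. The 3 largest held 173 genes, or 50.4% of all members. The largest, with 86 Vmn1r genes from Vmn1r91 to Vmn1r183, covered 3.95 Mb of chromosome 7 (20101158 to 24055691). The longest in bases was a mixed cluster of 51 genes from Vmn2r29 to Vmn1r89 over 6.01 Mb of chromosome 7 (7212996 to 13220289). A mixed cluster of 36 genes, from Vmn2r90 to Vmn1r237, covered 3.61 Mb of chromosome 17 (17703941 to 21314886). Clusters of 35 Vmn1r genes on chromosome 13 (1.16 Mb) and 28 on chromosome 6 (1.52 Mb) followed in number. The lone genes were Vmn1r1, Vmn1r90, Vmn1r238, Vmn2r18, Vmn2r118, Vmn2r120, Vmn2r121 and Vmn2r129.

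Neighbouring Vmn1r genes were closer together at the median, and the clusters of both families ranged widely in density. The median gap between Vmn1r neighbours was 32506 bases, against 61646 bases between Vmn2r neighbours and 19141 bases between Olfr neighbours. The 35 Vmn1r genes on chromosome 13 stood at 30.1 genes per Mb and the 86 on chromosome 7 at 21.7, while the pair Vmn1r184 and Vmn1r185 stood at 5.79. The 4 genes from Vmn2r84 to Vmn2r87 stood at 35.8 genes per Mb, and the 10 from Vmn2r65 to Vmn2r79 at 4.77, in a span where 5 further RefSeq Vmn2r genes have no row. The densities of the families therefore overlapped.

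**Figure D3:**
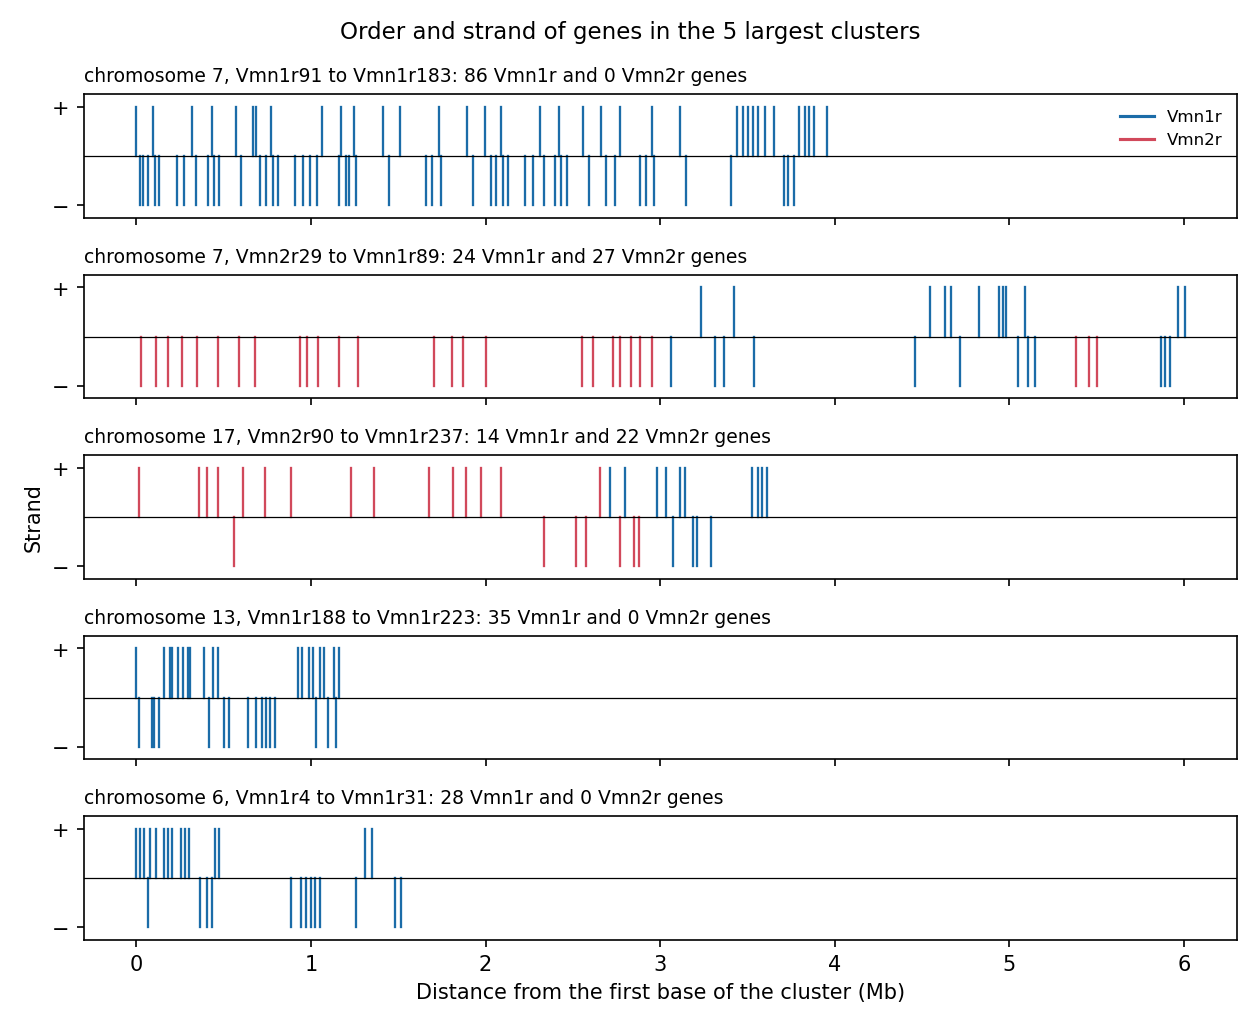
Genes of the 5 clusters with the most members, by distance from the first base of the cluster (x axis, Mb) and strand (up for plus, down for minus), with Vmn1r in blue and Vmn2r in red. In the 51-gene cluster all 27 Vmn2r genes point down, and in the 36-gene cluster the families alternate where they meet.

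Where families shared a cluster they mostly kept to blocks. In the 51-gene cluster there were 4 blocks, 24 Vmn2r genes (Vmn2r29 to Vmn2r52), 19 Vmn1r (Vmn1r66 to Vmn1r84), 3 Vmn2r (Vmn2r53 to Vmn2r56) and 5 Vmn1r (Vmn1r85 to Vmn1r89). The blocks were 97541, 218705 and 351183 bases apart. The longest gap in this cluster, 920060 bases, lay inside the block of 19 Vmn1r genes, between Vmn1r71 and Vmn1r72. It was only just under the 1 Mb limit, and a limit below that gap would split the cluster there. In the 12-gene cluster of chromosome 7, Vmn2r28 stood alone between Vmn1r59 and Vmn1r60, on the same strand as both. The family changed most often in the cluster on chromosome 17. There a block of 19 Vmn2r genes ended with Vmn2r107, and the order went on with Vmn1r224, Vmn2r108, Vmn1r225, Vmn2r109, Vmn2r110 and Vmn1r226, with 5 changes of family. Both interleaved Vmn1r genes were on the plus strand, and Vmn2r108, Vmn2r109 and Vmn2r110 on the minus strand. In all, 99 members (28.9%), 49 Vmn1r and 50 Vmn2r, lay in a mixed cluster.

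The strand pattern also differed between families. Of 95 pairs of neighbouring Vmn2r genes, 76 (80.0%) lay on the same strand, against 113 of 211 pairs of Vmn1r genes (53.6%). The share was 69.6% for Olfr neighbours and 52.1% for neighbours among all coding genes. In the 86-gene Vmn1r cluster 37 of 85 pairs (43.5%) were on the same strand. Without that cluster the Vmn1r share was 76 of 126 (60.3%), and the Vmn2r share without the 51-gene cluster was 51 of 70 (72.9%).

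Members in a row on the same strand formed 140 runs in the 19 clusters, with a median length of 2 genes, and 67 runs were a single gene. The longest run was 25 genes on the minus strand of chromosome 7 (7212996 to 10275351), made of the 24 Vmn2r genes Vmn2r29 to Vmn2r52 and then Vmn1r66. The next was 10 Vmn2r genes on the plus strand of chromosome 17, Vmn2r93 to Vmn2r103. The longest runs of Vmn1r genes alone were 8 genes, found at Vmn1r194 to Vmn1r201 and Vmn1r205 to Vmn1r212 on chromosome 13 and at Vmn1r8 to Vmn1r15 on chromosome 6. All 4 genes of each cluster on chromosome 10 (Vmn2r80 to Vmn2r83, and Vmn2r84 to Vmn2r87) shared a strand, as did Vmn2r88 and Vmn2r89 on chromosome 14. Over whole families 46.5% of Vmn1r and 33.9% of Vmn2r genes were on the plus strand.

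**Figure D4:**
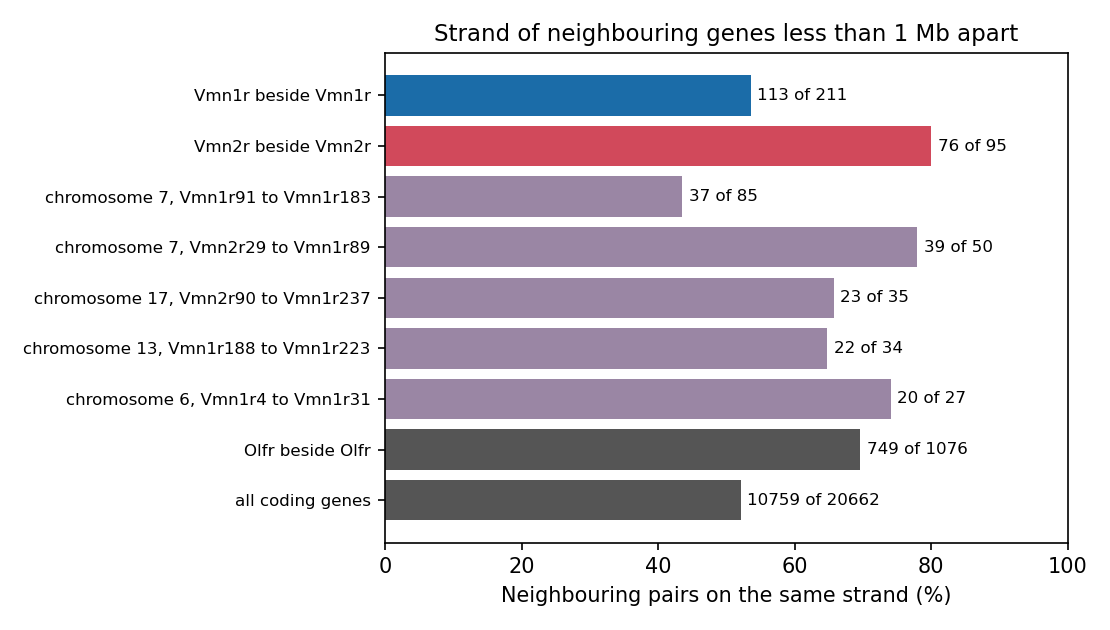
Share of neighbouring pairs on the same strand (x axis, percent), with counts beside the bars, for each family, the 5 largest clusters, Olfr genes and all coding genes. Vmn2r neighbours stand at 80.0% and the 86-gene cluster at 43.5%.

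Symbol numbers followed position. Numbers of neighbours in a family differed by 1 in 184 of 211 Vmn1r pairs (87.2%) and 82 of 95 Vmn2r pairs (86.3%). Of the 27 Vmn1r pairs that did not differ by 1, 26 lay in the 86-gene cluster, as did all 11 in which the number fell along the chromosome. Numbers fell in 6 Vmn2r pairs, among them those in the order Vmn2r45, Vmn2r40, Vmn2r39, Vmn2r38, Vmn2r37 and Vmn2r46 of the 25-gene run.

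Start windows were then compared over the genes in which base 251 of the window was the row's first base and the first base of a start codon. These were 180 Vmn1r and 96 Vmn2r genes. Identity is 100% minus the edits needed to turn one window into another, per 300 bases. The median identity to the closest member was 92.2% in Vmn1r and 91.8% in Vmn2r genes, against 58.8% among 684 Olfr genes. At least 95% was reached by 83 Vmn1r (46.1%), 31 Vmn2r (32.3%) and 18 Olfr genes (2.63%). A window identical to that of another member was found for 54 Vmn1r and 8 Vmn2r genes. The closest member lay in the same cluster for 167 of 180 Vmn1r and 89 of 96 Vmn2r genes. It was the directly neighbouring member for only 20 Vmn1r and 31 Vmn2r genes. The highest identity between the families was 53.7%, and the median over all pairs of Vmn1r genes was 48.0%. For pairs of 1 family in different clusters the median was 47.3% in Vmn1r and 50.3% in Vmn2r genes. What unrelated bases give by this measure was not computed, so values in this range are not read as likeness.

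The likeness was concentrated in few clusters. Of 78 windows in the 86-gene Vmn1r cluster, 52 were identical to another and 73 had a match of at least 95%. In the 51-gene cluster 16 of 22 Vmn2r windows had a match of at least 95%, and 0 of 18 Vmn1r windows, whose median closest identity was 64.3%. The 31 Vmn1r windows on chromosome 13 had a median of 74.7%. The 7 genes from Vmn2r111 to Vmn2r117, which include the Vmn2r116 set printed above, had a median of 98.3%.

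In the 86-gene cluster a whole series of genes recurred, a pattern that was looked for after the identical windows had been seen. The 16 neighbours from Vmn1r93 to Vmn1r112 were matched, in the same order, by the 16 neighbours from Vmn1r250 to Vmn1r157, which stand 43 places further on. Pairs entered a series only if they shared a strand and stood near the median distance of the pairs at least 99% identical. Strand and distance were therefore set by the choice. The number of places was picked after the identical windows were seen, and such windows set the median distance. The window identities given for a series are thus part of its choice and not separate evidence for it. Of all 43 pairs that stand 43 places apart, 27 shared a strand and 17 shared both strand and coding length. In the series, coding length was the same in 16 of 16 pairs. Of the 15 pairs with both windows, 14 were identical and the other, Vmn1r242 and Vmn1r252, was 99.7% identical. The starts of the pairs lay 1989100 to 1995667 bases apart, with a median of 1.99 Mb. A shorter series of 7, from Vmn1r93 to Vmn1r244, was matched 17 places further on by Vmn1r114 to Vmn1r120, at 673098 to 678546 bases. It was chosen by the same rule, and of all 69 pairs 17 places apart, 34 shared a strand and 11 shared both strand and coding length. That share of both, 15.9%, does not stand out. It was 39.5% at 43 places, 25.7% at 12 and 23.3% at 26. Series at places apart other than 17 and 43 were not sought. In the series of 7, coding length was the same in 6 of 7 pairs, the exception being Vmn1r94 and Vmn1r115 (918 and 888 bases). Of the 6 pairs with both windows, 4 were identical. In all, 63 of the 78 genes with a window in this cluster had a partner of at least 99% identity, in 115 pairs. A read that lies wholly within identical bases cannot be assigned to 1 of these genes by its sequence.

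**Figure D5:**
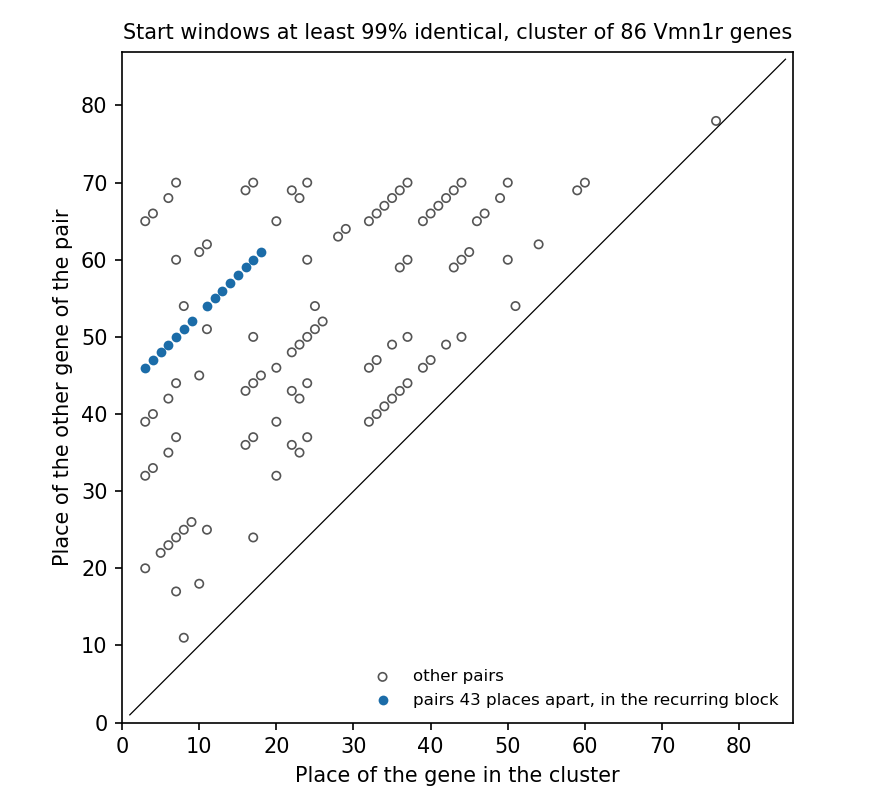
Each point is a pair of genes of the 86-gene cluster on chromosome 7 whose 300-base start windows are at least 99% identical, by their places in the cluster. The blue points 43 places off the diagonal are the recurring series, and the other points also fall on short lines parallel to the diagonal.

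The letters just before the start codon differed too. The base 3 places before it was A in 74 of 96 Vmn2r windows (77.1%) and in 55 of 180 Vmn1r windows (30.6%). It was A in 45.6% of 951 windows of other genes whose row begins at a start codon. Of these 951, 684 were Olfr genes (42.0% A), and the remaining 267 had A in 55.1%. In Vmn1r windows it was T in 87 (48.3%), and 76 of these were in the 86-gene cluster, where 76 of 78 windows had T. In the other 102 Vmn1r windows A was commonest, with 55. The letters TCCATG, with the start codon at their end and read on the gene's strand only, stood there in 59 of the 78 windows of the 86-gene cluster and in 1 of the other 102 Vmn1r windows. They stood in 3 of 96 Vmn2r windows and in 22 of the 951 windows of other genes (2.31%). Vmn1r130 and Vmn1r131 are among those that carry them. Many of the windows counted are near copies of each other.

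Other genes of vomeronasal sensing, from a list by role, lay mostly outside the clusters. All 10 listed genes of signalling had a row and 0 lay in a cluster, among them Trpc2 (chromosome 7, 13749 bases), Gnai2 (chromosome 9, 21219 bases) and Gnao1 (chromosome 8, 158551 bases). Formyl peptide receptors, a further family of receptors partly used by vomeronasal neurons, were the exception. Fpr1, Fpr2, Fpr3, Fpr-rs3, Fpr-rs4 and Fpr-rs6 all lay inside the mixed cluster on chromosome 17, each with 1 coding exon of 972 to 1095 bases. Fpr-rs7 had no row under that symbol. All 9 H2-M genes of the list, which encode MHC class Ib molecules found with V2R receptors, lay on chromosome 17 outside the clusters. Of 6 ligand genes 3 had a row under the listed symbol. They were Esp1 (chromosome 17), whose product is the ligand of Vmn2r116, and the urinary protein genes Mup3 and Mup20 (chromosome 4).

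Clusters also differed in the genes of other names within them. Of the 19 clusters, 7 held no gene of another name. Some others held only 1 more vomeronasal symbol and no unrelated gene. It was Vmn1r-ps103 in the 35-gene cluster, Vmn2r-ps11 in that from Vmn2r1 to Vmn2r7 and V1ra8 in the 15-gene cluster of chromosome 6. The 51-gene cluster held 32 genes of other names, of which 17 had names of zinc finger genes, such as Zscan4c and Zfp551. The 10-gene Vmn2r cluster from Vmn2r65 to Vmn2r79 enclosed 15 Olfr genes. Members themselves hardly overlapped other genes. Only Vmn2r7, inside Vmn2r-ps11, and Vmn1r90, inside Nlrp5-ps, shared bases with another symbol, both on the same strand as it.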

How the data were processed

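CUT&Tag libraries of Pol I were made from mouse embryonic stem cells, 2 untreated and 2 treated with auxin. The table analysed is an annotation in 12-column BED layout without a header. The submitters' processing notes name mm10 as the build and Bowtie2, FastQC, deepTools and bedtools as tools. How the annotation was made is not given in the sources used here. The score column deposited by the authors is 0 in every row. Columns of positions and exon numbers were used.

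Coding exons were the exon parts between the coding start and end. Each gene was represented by its row with the longest coding length, ties going to the longest span. Clusters join loci with gaps under 1 Mb (1000000 bases). The routines were tested on simulated data with 161 genes, of which 0 were wrong. Symbols were matched to RefSeq genes of GRCm38.p6, where 343 of 343 matched and all lay inside the reference span. RefSeq start windows existed for 315 of the 343 genes. Windows were aligned end to end with edlib, and tables were made with pandas 2.3.3 under Python 3.11.15. Protein sequences were not used here.

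The members and lists were chosen with earlier results of these data known. The rule for named genes took the extremes of span, coding length and exon number, first and last genes of large clusters, family boundaries, lone genes, overlapping genes, the longest strand runs, family C and Vmn2r116. Genes with recurring or identical windows, the exceptions in reading frame, genes with shared layouts, 2 further Vmn1r genes with introns and the falling symbol numbers are named after their values were seen. Alternatives were other gaps, rows in place of genes, other contigs and other definitions of runs and numbers.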

Additional observations from a re-analysis of the deposited data

How the results depend on the processing

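No paired analysis was possible because no value per library was analysed. Of 43 alternatives, 32 left the value within 1.5 times (counts), within its 95% Wilson interval (shares) or unchanged (medians), and 11 moved it. Counting all exons in place of coding exons, 95.6% of Vmn1r genes had 1. Counting every row, the Vmn2r medians were 23750 bases of span and 2559 coding bases, and over all rows of a gene the median span was 23841 bases. Gaps under 0.1 Mb gave 50 clusters, 31 lone genes and a longest run of 8, and gaps under 2 Mb gave 5 lone genes. Mixed clusters numbered 2 to 4 under the other gaps. The longest run was 12 when a gene of another name ended it. With numbers up to 2 apart, 92.6% of Vmn2r neighbours were in order. Added after seeing the data, leaving out the 86-gene cluster gave 60.3% of Vmn1r neighbours on the same strand. The reference windows cover 276 genes that begin at a start codon, and likeness outside these 300 bases was not measured.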

Other observations

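Many rows of Vmn1r genes were copies of another row. In 78 of the 429 rows (18.2%) all 12 columns repeated an earlier row of the same gene, against 0.263% of Olfr rows and 3.01% of all rows on assembled chromosomes. By family these were 74 of 303 Vmn1r rows (24.4%) and 4 of 126 Vmn2r rows (3.17%), the latter near the share of all rows. The copies belonged to 48 genes, and 44 of these, with 72 copies, lay in the 86-gene Vmn1r cluster. In that cluster Vmn1r107, Vmn1r130, Vmn1r137, Vmn1r155 and Vmn1r165 had 5 rows each, and Vmn1r111, Vmn1r131, Vmn1r138 and Vmn1r166 had 4 each. Of the 43 genes there with copies and a window, 39 had a window identical to that of another gene, against 13 of the 35 without copies. The genes with 5 rows include the 3 that share the window of Vmn1r130. A summary over rows counts these genes up to 5 times.

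Rows that differed for the same gene were few. Vmn2r89 had 4 rows with 0, 4, 5 and 6 coding exons on the same 9332 bases. Vmn2r29 had a row of 65294 bases without a coding part beside its coding row of 16002 bases. In all, 3 Vmn2r rows had no coding part, although the RefSeq table classes every member as protein-coding.

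Receptor genes outside the naming rule lay in the same clusters. V1ra8 and V1rd19, whose symbols follow an older style, stood inside the 15-gene cluster of chromosome 6 and the 86-gene cluster. The RefSeq table holds 7 curated Vmn2r genes that have no row in the annotation, and 5 of them (Vmn2r70, Vmn2r71, Vmn2r72, Vmn2r74 and Vmn2r76) fall within the span of the cluster from Vmn2r65 to Vmn2r79. The others are Vmn2r3 and Vmn2r54. Neighbour counts in that cluster therefore skip genes. The table also lists 141 Vmn1r and 144 Vmn2r pseudogenes, of which 111 (78.7%) and 79 (54.9%) lie within the span of a cluster.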
